A study of Homo sapiens with 12 samples.

Results

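The effect of raising the dose of compound 1, an inhibitor of the histone methyltransferase DOT1L, was examined in MDA-MB-231 cells on 4 arrays, 2 at 5 μM and 2 at 1 μM, out of the 12 arrays of the study. The arrays were chosen by the dose in their titles, and no measured value entered the choice. Compound 1 is EPZ004777, and both doses were given for 14 days with the medium and compound renewed in between. The other 8 arrays, in pairs, were of cells given compound 2 at 10 μM or 2 μM for 14 days, of cells transfected with DOT1L siRNA-1 at 10 nM for 7 days, and of control cells kept in 0.1% DMSO for 14 days. All cells came from this 1 line, a human breast cancer line that grows with a mesenchymal appearance, so every group shares its genotype. Titles give the 2 arrays as biological replicates and the treatment notes describe duplicate plating of 1 line, without further separation of the cultures. The p-values and standard errors (SE) therefore measure the spread between arrays of a group, which may be partly technical. That spread is pooled over all 12 arrays, control arrays included, and is not the scatter within the 2 doses alone.

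DOT1L is the enzyme that places methyl groups on lysine 79 of histone H3, a mark found over the bodies of transcribed genes. Inhibitors such as compound 1 occupy the site of its methyl donor, S-adenosylmethionine. Existing marks are lost slowly, through cell division and histone turnover, and changes in RNA therefore tend to appear over days. A comparison of 2 doses asks whether the RNA response is already complete at the lower one or still grows with more inhibitor.

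Each gene is given here as a level, the log2 of its background-corrected bead signal after every array was set to the same median. A difference of 1 between levels is a factor of 2. On the 4 compound 1 arrays, 34.6% to 36.7% of probes were detected over background, and the lowest level counted as detected was 5.47 to 5.57. The 2 arrays at 5 μM correlated with each other at r = 0.991 and the 2 arrays at 1 μM at r = 0.993, while the pairs taken across doses correlated at 0.989 to 0.993. The markers of the line were bright at both doses, with AXL at 13.1, CD44 at 13.0, VIM at 13.2 and S100A4 at 13.3 on average at 5 μM, against 13.4, 13.1, 13.1 and 13.3 at 1 μM. ZEB1 and SPARC, on the same marker list, were not detected on both arrays of any group. Neither were the fibroblast collagens COL1A1, COL1A2 and COL3A1 or the endothelial markers CDH5, VWF, KDR, TEK and ERG. Of 8 luminal epithelial markers 4 were tested, and all 4 had estimates above 0 between the doses, KRT18 (0.43), EPCAM (0.21), KRT19 (0.08) and KRT8 (0.04). Other EPCAM probes gave -0.22 and 0.14. Only KRT18 was without overlap. Against control KRT18 stood at -0.29 at 5 μM and -0.71 at 1 μM, while the median of the 4 markers was 0.40 and 0.27. The wider luminal list had 5 of 11 genes above 0 and 6 below with a median of -0.02. The epithelial adhesion list had 10 above and 12 below with a median of -0.01.

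No single probe separated the doses at the chosen threshold. Of 17911 probes tested, 0 passed an adjusted p of 0.05 in limma (percent called 0%), and the lowest adjusted p was 0.366. At an unadjusted p below 0.05 there were 1256 probes (7.01%), of which 639 were higher and 617 were lower at 5 μM. Such probes were more frequent among dim probes, 9.27% of the dimmest against 4.18% of the brightest of 4 bins of like size. Their number fell or rose depending on which compound 1 array was left out, so the share of 7.01% rests partly on single arrays. The estimates were nevertheless fairly narrow. The 95% interval of the difference lay within a factor of 2 either way for 97.9% of probes and within a factor of 1.5 for 70.2%. Only 5 probes had an estimated difference of more than a factor of 2. An exact permutation test of 2 against 2 arrays cannot go below p = 0.333 and was not used.

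**Figure D1:**
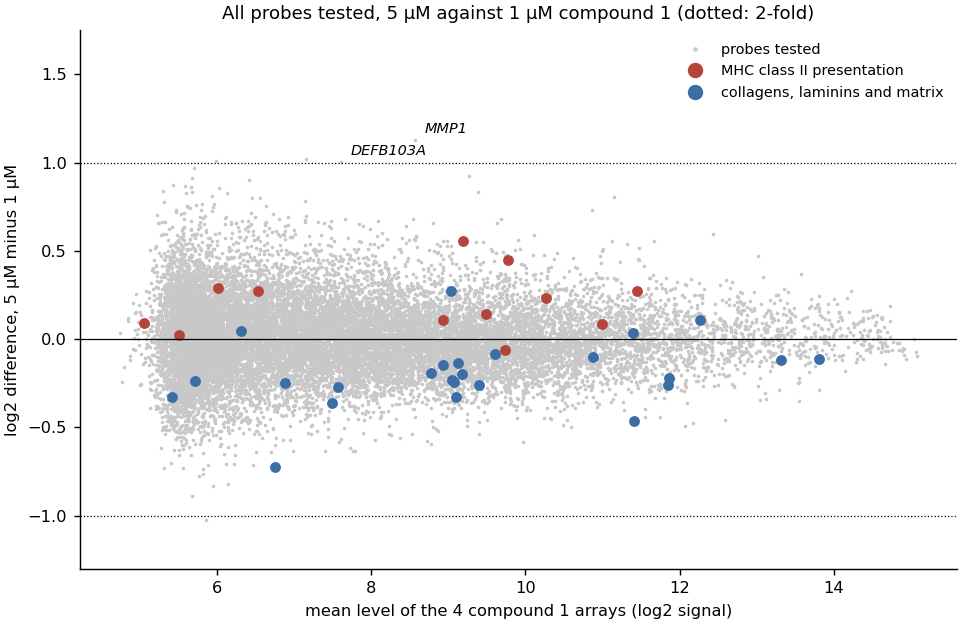
Log2 difference between compound 1 at 5 μM and at 1 μM (vertical axis) against the mean level of the 4 compound 1 arrays (horizontal axis, log2 signal) for the 17911 probes tested, each grey point 1 probe. The dotted lines mark a factor of 2, passed by 5 probes, MMP1 and DEFB103A among them; the 12 MHC class II genes (red) lie mostly above 0 and the 25 matrix genes (blue) mostly below.

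The 5 genes of lowest p on the higher side were SYT3, CYP1A1, CXCL1, RARRES2 and CATSPER2P1, none of them past the threshold. CYP1A1, a cytochrome P450 that oxidises aromatic compounds and is a classical target of the aryl hydrocarbon receptor, had levels of 6.89 and 6.71 at 5 μM, against 6.08 and 6.09 at 1 μM. Its difference was 0.72 (SE 0.12), a factor of 1.64, with a limma adjusted p of 0.366. CXCL1, a chemokine that draws neutrophils and a classical NF-kB target, had levels of 9.84 and 9.63 at 5 μM, against 8.73 and 8.90 at 1 μM. It was the brightest of these 5 genes, and its difference of 0.92 (SE 0.18) was a factor of 1.90 (limma adjusted p = 0.444). For both genes, which were picked by low p, the 5 μM arrays lay above the 1 μM arrays without overlap, as in 17.1% of all genes. The control levels, 6.47 and 6.58 for CYP1A1 and 8.92 and 9.50 for CXCL1, stood between the means of the 2 doses.

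RARRES2, which encodes the chemoattractant chemerin, had levels of 6.65 and 6.70 at 5 μM, whereas the 1 μM arrays had 6.05 and 6.14. The CATSPER2P1 pseudogene measured 6.08 and 6.15 at 5 μM, against 5.29 and 5.62 at 1 μM, of which 1 array was above background. SYT3, a synaptotagmin that senses calcium in membrane fusion, was detected on both 5 μM arrays (5.85 and 5.60) and not well above background on either 1 μM array (4.82 and 4.94), so only a bound is available, at least 1.13-fold higher at 5 μM. Here and below such bounds set the bright group's mean against the lowest level detected on each dim array. SYT3 and CATSPER2P1 thus lay close to the detection limit at 1 μM, and neither was detected on a control array.

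The promoters of CYP1A1 and CXCL1 are shown because both genes have well-known control elements. They are from RefSeq on GRCh38.p14, 5′ to 3′ on the gene's own strand, with 250 bases before and 50 from the transcription start on, which covers chr15:74725479-74725778 (minus strand) for CYP1A1 and chr4:73869143-73869442 (plus strand) for CXCL1. Capitals mark GCGTG, the core letters of the aryl hydrocarbon receptor element, in CYP1A1, and GGGAATT, the first letters of a kappaB element, in CXCL1, both searched on either strand.
CYP1A1: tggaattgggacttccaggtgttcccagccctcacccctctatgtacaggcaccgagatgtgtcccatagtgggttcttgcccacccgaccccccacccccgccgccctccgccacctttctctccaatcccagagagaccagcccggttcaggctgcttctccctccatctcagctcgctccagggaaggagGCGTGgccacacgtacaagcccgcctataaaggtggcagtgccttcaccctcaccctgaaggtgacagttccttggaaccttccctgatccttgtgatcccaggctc
CXCL1: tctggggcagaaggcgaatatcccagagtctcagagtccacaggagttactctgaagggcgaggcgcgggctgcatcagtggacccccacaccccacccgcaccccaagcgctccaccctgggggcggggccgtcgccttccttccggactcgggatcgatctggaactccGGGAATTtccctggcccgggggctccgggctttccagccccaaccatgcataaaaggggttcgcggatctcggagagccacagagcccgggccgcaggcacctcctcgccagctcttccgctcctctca
Each window held 1 match, 57 bases before the start in CYP1A1 and 79 bases before it in CXCL1. Among 35116 such windows in the table, 36.5% held GCGTG and 3.54% held GGGAATT. A match of letters is a description of the sequence and says nothing about binding in these cells.

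On the lower side the 5 genes of lowest p were CYP2E1, CHD2, PJVK, MIR21 and MANCR, again without a call. CYP2E1, the cytochrome P450 that oxidises ethanol, had levels of 5.80 and 5.93 at 5 μM, against 6.57 and 6.59 at 1 μM. CHD2, a chromatin remodeller, was at 6.08 and 6.16 at 5 μM and at 6.81 and 6.84 at 1 μM, a difference of -0.71 (SE 0.13, limma adjusted p = 0.366). The control levels of CHD2, 6.47 and 6.48, lay between the doses, and so did those of CYP2E1, 6.18 and 6.05. PJVK, which encodes pejvakin, a protein needed for hearing, had 5.47 and 5.43 at 5 μM, where 1 of the 2 arrays was above background, and 6.26 and 6.12 at 1 μM.

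The MIR21 probe, for the gene of the microRNA miR-21, had levels of 5.82 and 5.65 at 5 μM and 6.52 and 6.58 at 1 μM (difference -0.82, SE 0.17, limma adjusted p = 0.444). VMP1, the autophagy gene whose transcription unit overlaps MIR21 on the same strand, averaged 10.5 at 5 μM and 10.8 at 1 μM (difference -0.39, SE 0.15). VMP1 was looked up after the MIR21 value had been seen, and whether the probes read separate transcripts was not tested. The long noncoding RNA MANCR, the brightest of the 5 genes of lowest p on this side, measured 8.43 and 8.54 at 5 μM, against 9.10 and 9.06 at 1 μM. In all 5 genes both arrays at 5 μM lay below both at 1 μM, as they did in 22% of all genes. Since the 5 were picked by low p, this order follows largely from the choice. Each of these 10 genes rests on 1 probe.

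**Figure D2:**
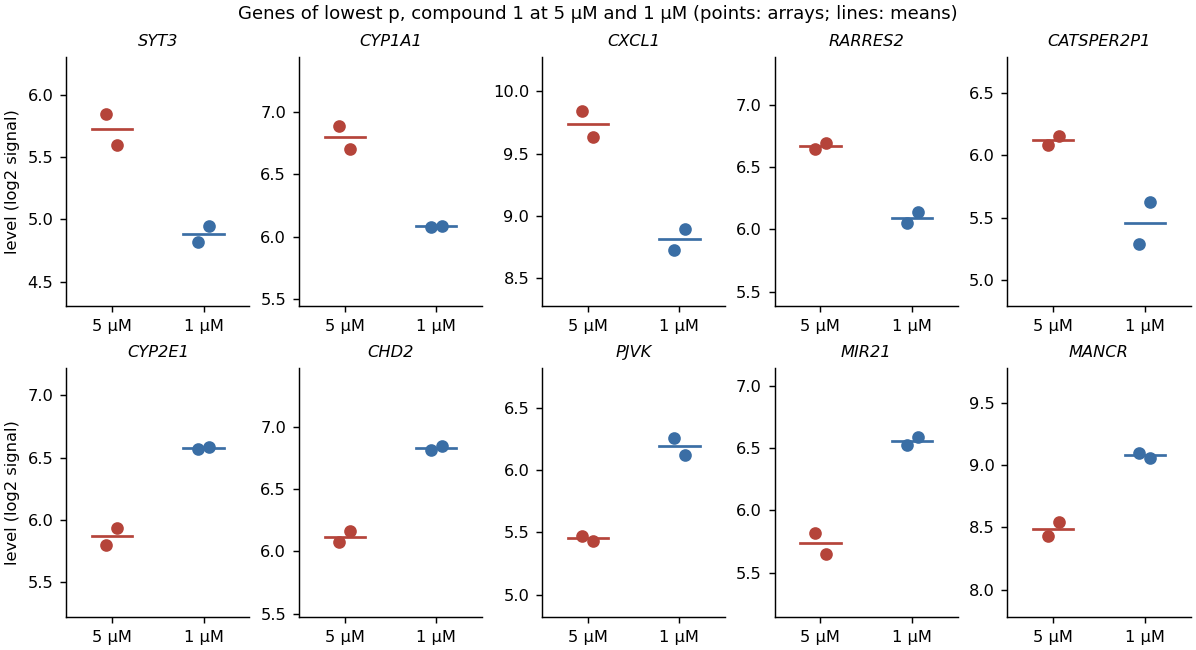
Levels (log2 signal) of the 5 genes of lowest p on the higher side (top row) and on the lower side (bottom row) on each compound 1 array; points are arrays, lines are means, and every panel spans the same height. The 5 μM and 1 μM arrays do not overlap in any panel, which follows largely from picking the genes by low p. The limma adjusted p of these genes was 0.366 to 0.444.

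Among the probes past a factor of 2 were those of a secreted protease and a secreted peptide. MMP1, the interstitial collagenase, had levels of 9.56 and 8.71 at 5 μM, against 7.86 and 8.16 at 1 μM. The difference was 1.13 (SE 0.30), a factor of 2.19, with a limma adjusted p of 0.551. Since its 5 μM arrays differed from each other by more than its 1 μM arrays did, the estimate was 0.71 without 5 μM replicate 1 and 1.55 without 5 μM replicate 2. DEFB103A, the antimicrobial peptide beta-defensin 3, had 8.15 and 8.09 at 5 μM and 6.79 and 7.44 at 1 μM, a difference of 1.00 (SE 0.26, limma adjusted p = 0.551). Its copy DEFB103B is nearly identical, and the probe cannot tell them apart. A second DEFB103A probe averaged 7.22 at 5 μM and 6.81 at 1 μM, a smaller difference of 0.41 (SE 0.16). The other 3 probes past a factor of 2 were 1 of the 3 PSMD10 probes tested (1.01, while the other 2 gave -0.14 and 0.07) and 2 probes without a gene symbol (1.02 and -1.03).

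A secreted protease and a surface receptor from the lists of MMP1 and DEFB103A had smaller estimates on the higher side. The stromelysin MMP3 was at 6.25 and 6.62 at 5 μM, against 5.77 and 5.79 at 1 μM (difference 0.65, SE 0.16). CD14, the coreceptor for bacterial lipopolysaccharide, measured 9.95 and 10.00 at 5 μM and 9.45 and 9.56 at 1 μM (difference 0.47, SE 0.13). Both lists also held genes on the other side: among metalloproteinases, plasminogen factors and their inhibitors 10 of 22 genes were above 0 and 12 below, with a median of -0.03, and among innate immunity receptors and antimicrobial peptides 6 of 10 were above 0, with a median of 0.05.

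Because single probes gave no call, genes were also read in groups. From 43 lists of pathways and gene families, the members with a tested probe were counted and their median difference taken, beside all 10773 genes tested, whose median was -0.02 with 46.3% above 0 and 53.7% below. The brightest probe stood for each gene. For single genes, both 5 μM arrays lay above both 1 μM arrays in 17.1% of all genes and below both in 22%. No member of any list passed the limma threshold. The medians of the lists spanned -0.22 to 0.19. The 4 differences between a 5 μM array and a 1 μM array gave medians all above 0 in 15 lists and all below 0 in 8. These 4 pairs share arrays and are not independent, and genes of a list are not independent replicates. Of the 75 genes named by rule whose difference was 0.3 or more in size, 33 moved by over 1.5 times when 1 compound 1 array was left out.

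The extracellular matrix list stood lowest. Of 42 collagens, laminins and other matrix genes listed, 25 were tested, 21 were below 0 and 4 above, and the median was -0.22. Both 5 μM arrays lay below both 1 μM arrays in 16 of the 25 and above them in 2. At an unadjusted p below 0.05 there were 4 members on the lower side (3.67% of all genes) and 0 on the higher side (2.78% of all genes). Each of the 4 array pairs had a median below 0, -0.24 to -0.10, and without 5 μM replicate 1 the list's median was -0.16 with 19 of 25 below 0. Set against control, the list's median was above 0 at both doses, 0.27 at 5 μM and 0.38 at 1 μM. The medians of all genes there were -0.05 and -0.03. For the list's median, the lower value at 5 μM is thus a smaller rise over control than at 1 μM. Single members differed. COL4A2 stood at -0.44 against control at 5 μM and 0.28 at 1 μM, and COL8A1 at 0.05 and 0.51, none past the threshold. At 5 μM, 7 of the 25 genes were called higher than control and 1 lower (217 and 51 of all 10773 genes).

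COL4A2, a chain of the type IV collagen of basement membranes, had the lowest estimate of the list, with levels of 6.72 and 6.07 at 5 μM and 7.12 and 7.12 at 1 μM (difference -0.72, SE 0.19). Here too 1 array weighed heavily, the difference being -1.05 without 5 μM replicate 1 and -0.39 without 5 μM replicate 2. COL4A1, the chain that assembles with COL4A2, was brighter, at 9.24 and 9.31 at 5 μM against 9.47 and 9.59 at 1 μM (difference -0.26, SE 0.12). COL8A1, of the network-forming type VIII collagen, had 10.98 and 11.38 at 5 μM, against 11.70 and 11.58 at 1 μM (difference -0.46, SE 0.17). The COL8A1 difference was -0.26 without 5 μM replicate 1 and -0.66 without 5 μM replicate 2, and a second probe gave -0.22. The fibril-associated COL12A1 (-0.36), the proteoglycan versican VCAN (-0.33), the glycoprotein FSTL1 (-0.33) and the laminin chain LAMC1 (-0.26) were likewise without overlap on the lower side, VCAN with 1 of 2 arrays at 5 μM above background. The 4 genes above 0 were the matricellular THBS1 (0.27) and CCN2 (0.11), without overlap, and COL6A3 (0.05) and LAMB3 (0.03), with overlap. Fibronectin FN1 (-0.23) overlapped between the doses, and 1 of its 2 arrays at 5 μM was above background.

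COL4A1 and COL4A2 are head-to-head neighbours that share 1 promoter region, which is shown because both members gave negative estimates. The windows are from RefSeq on GRCh38.p14, chr13:110307108-110307407 (minus strand) for COL4A1 and chr13:110307034-110307333 (plus strand) for COL4A2. Capitals mark CCAAT, searched on both strands, which reads ATTGG where it lies on the opposite strand.
COL4A1: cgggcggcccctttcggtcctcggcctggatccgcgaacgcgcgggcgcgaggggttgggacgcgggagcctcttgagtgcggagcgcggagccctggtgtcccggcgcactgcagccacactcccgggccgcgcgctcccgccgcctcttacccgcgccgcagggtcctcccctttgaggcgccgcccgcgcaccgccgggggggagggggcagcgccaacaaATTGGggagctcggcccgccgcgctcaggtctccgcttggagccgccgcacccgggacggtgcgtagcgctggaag
COL4A2: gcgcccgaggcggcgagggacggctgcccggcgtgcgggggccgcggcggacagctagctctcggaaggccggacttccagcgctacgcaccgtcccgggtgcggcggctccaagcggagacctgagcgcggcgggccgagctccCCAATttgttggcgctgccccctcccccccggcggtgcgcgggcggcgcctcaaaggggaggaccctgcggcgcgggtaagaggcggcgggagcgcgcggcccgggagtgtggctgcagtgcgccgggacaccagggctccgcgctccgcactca
The transcription starts lie 127 bases apart and the windows share 226 bases. The single CCAAT of the region falls 26 bases before the start of COL4A1, on its opposite strand, and 105 bases before the start of COL4A2. Among all windows in the table, 34.6% held CCAAT.

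A list of mesenchymal genes, which shares 4 members with the matrix list, also had a median below that of all genes. The mesenchymal list had 14 of 18 tested genes below 0 and a median of -0.13, with AXL, a receptor tyrosine kinase, at 13.06 and 13.22 at 5 μM against 13.46 and 13.40 at 1 μM. A second AXL probe gave 0.11. Of its members LOX, COL5A1, FN1 and TGFBI are also on the matrix list. VIM, the intermediate filament of mesenchymal cells, overlapped between the doses (difference 0.12), and ACTA2, smooth muscle actin, was on the other side (0.26). The mesenchymal list's median against control was also above 0, at 0.14 for 5 μM and 0.30 for 1 μM.

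Lists of fatty acid synthesis and of the hypoxia response also had medians below 0. Sterol synthesis had no clear direction, with 7 of 18 genes above 0 and 11 below. Its median was -0.06, but 0.07 without 1 μM replicate 2, and 5 genes were higher and 4 lower without overlap (17.1% and 22% of all genes). Of 14 genes of fatty acid synthesis, 10 were below 0 (median -0.13) and 8 lay lower without overlap. The desaturase FADS2 was at 5.59 and 5.23 at 5 μM and 5.66 and 6.16 at 1 μM (difference -0.50, SE 0.21), with 1 of 2 arrays at 5 μM above background, and without 1 μM replicate 2 the FADS2 difference was -0.26. SCD, the desaturase that makes oleate, was at 11.59 and 11.47 against 11.90 and 12.04 (-0.44, SE 0.30). FASN, the synthase itself, differed by -0.11 and the transcription factor SREBF1 by -0.02. Among 32 genes of hypoxia and glycolysis, 24 were below 0 (median -0.11) and 15 were lower without overlap. ERO1A, an oxidase of the endoplasmic reticulum induced by low oxygen, was at 9.12 and 9.13 at 5 μM, against 9.68 and 9.64 at 1 μM (-0.54, SE 0.16). The enolase ENO2 (-0.41) and the glucose carrier SLC2A3 (-0.36) were also lower without overlap, whereas KDM3A, a histone demethylase induced by hypoxia, lay on the higher side (0.60, SE 0.24). Against control, the median of the hypoxia list was 0.16 at 5 μM and 0.22 at 1 μM. That of fatty acid synthesis was -0.01 at 5 μM and 0.18 at 1 μM. The chaperone list of the endoplasmic reticulum had 18 of 22 genes below 0 but a smaller median, -0.08, which was -0.02 without 1 μM replicate 1. Its members included HSP90B1 (-0.36) and SEL1L (-0.51); SEL1L was above background on 1 of 2 arrays at 5 μM.

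**Figure D3:**
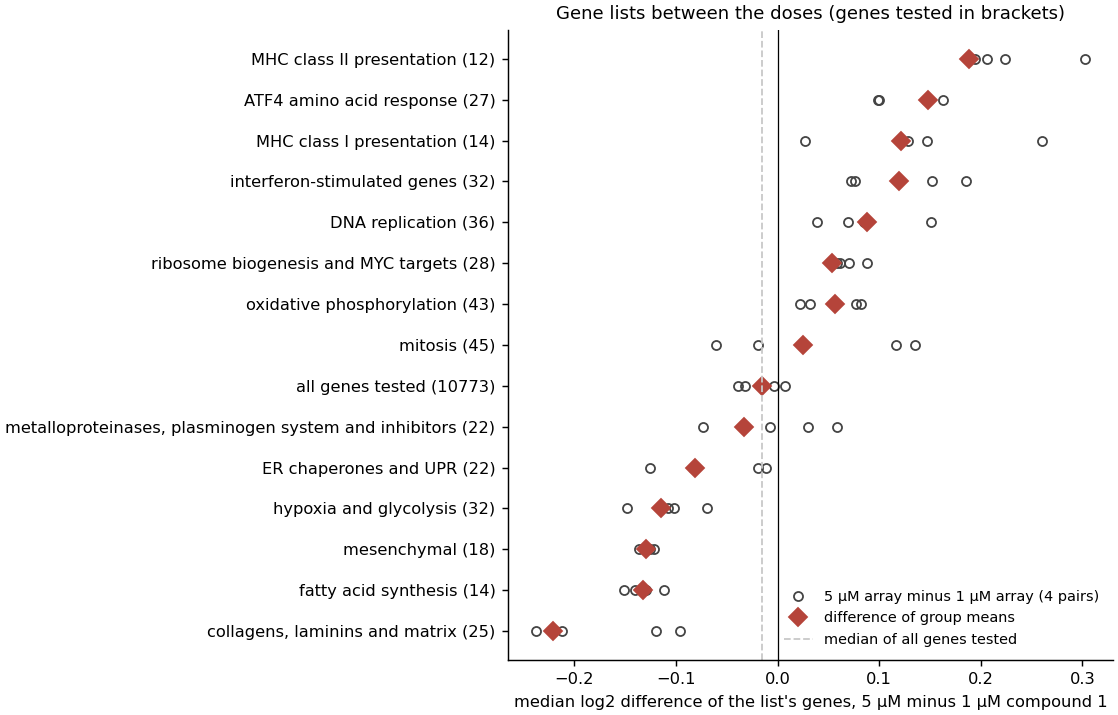
Median log2 difference (5 μM minus 1 μM) of the tested genes of 14 lists and of all genes tested; diamonds are differences of the group means, open circles the 4 differences between single arrays, and the dashed line the median of all genes. MHC class II stands highest at 0.19 and the matrix list lowest at -0.22, and under the authors' own scaling or the literal wording of the methods 6 lists drawn above 0 (MHC class I, interferon, DNA replication, ribosome biogenesis, oxidative phosphorylation and mitosis) lay below 0 in at least 1 of these 2 settings. The median of all genes was also lower in these 2 settings.

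Genes of antigen presentation were at the other end. MHC class II molecules show peptides from outside the cell to helper T cells, and CIITA, RFX5 and their partners switch on their genes together. Of 16 genes listed 12 were tested, 11 were above 0, and the median was 0.19, the highest of the 43 lists. Both 5 μM arrays lay above both 1 μM arrays in 8 of them and below in 0. At an unadjusted p below 0.05 there were 2 members on the higher side and 0 on the lower. Without 5 μM replicate 1 the median was 0.17, with 10 of 12 above 0, and without 5 μM replicate 2 it was 0.24, with 9 of 12 above 0. Measured against control, the list's median was 0.35 at 5 μM and 0.04 at 1 μM.

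HLA-DMB, a chain of the peptide-loading exchanger, had levels of 9.42 and 9.52 at 5 μM and 8.81 and 9.02 at 1 μM (difference 0.55, SE 0.17, limma adjusted p = 0.660). HLA-DRA, the alpha chain of the HLA-DR molecule, measured 11.58 and 11.58 at 5 μM and 11.25 and 11.36 at 1 μM (0.27, SE 0.13). Among peptide-binding chains, HLA-DRB4 differed by 0.45, HLA-DQB1 by 0.29, HLA-DPA1 by 0.24 and HLA-DRB3 by 0.11, although DRB genes are so alike that these probes may read several of them. HLA-DOA, which tempers the exchanger, differed by 0.27, and CD74, the invariant chain that guards the groove, by 0.09. The regulators were near 0, with CIITA at 5.36 and 5.70 at 5 μM against 5.47 and 5.54 at 1 μM, above background on 1 array of each dose, and RFX5 at -0.06. HLA-DPB1 was not detected on any compound 1 array, so its estimate carries no order although it is counted above 0. Over the 10 members detected on both arrays of a dose, a choice made after seeing the data that leaves out HLA-DPB1 and CIITA, 9 were above 0 and the median was 0.25. Among leukocyte markers, PTPRC, CD3E, ITGAM and LYZ were not detected on both arrays of any group, and CD14 (0.47) and CSF1R (-0.32) lay on opposite sides of 0 between the doses.

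**Figure D4:**
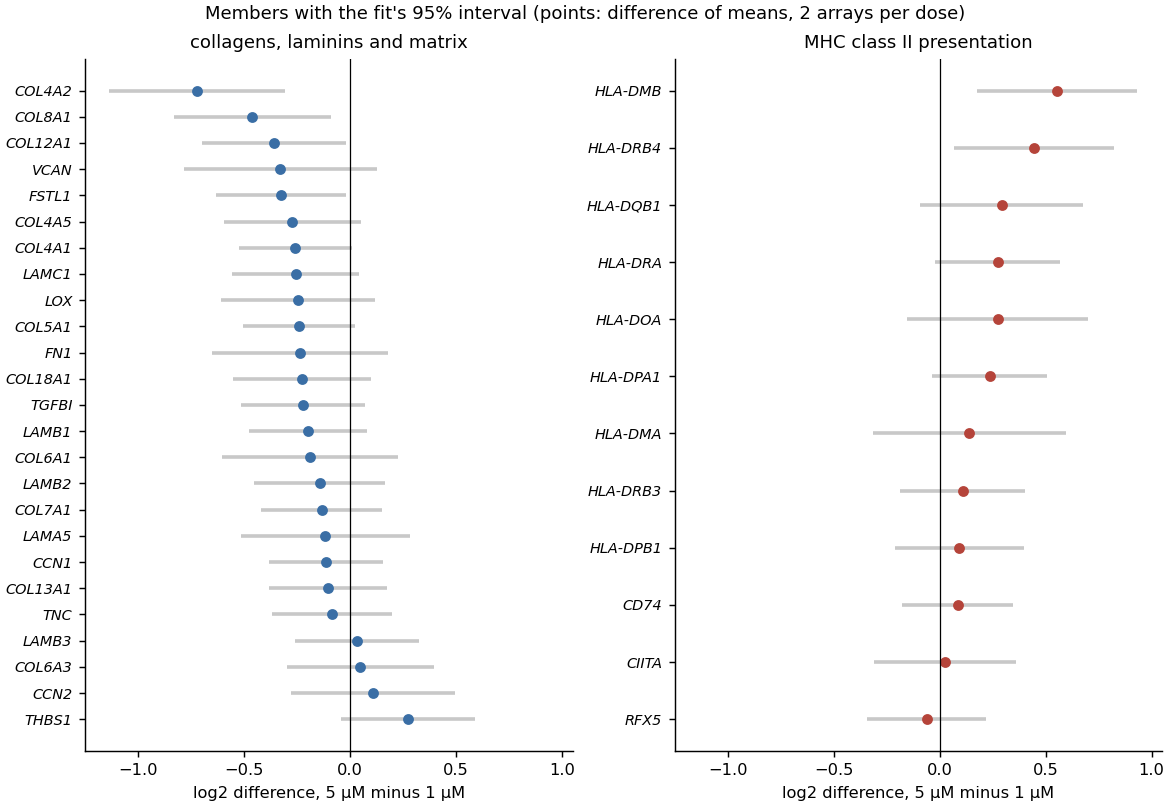
Log2 difference between compound 1 at 5 μM and 1 μM (horizontal axis) of the 25 tested matrix genes (left) and the 12 tested MHC class II genes (right), with points for the difference of the means of 2 arrays per dose and grey bars for the 95% interval of the limma fit. COL4A2 (-0.72) and HLA-DMB (0.55) lie farthest from 0, and most bars cross 0.

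MHC class I and interferon genes had medians of 0.12 each, but these were -0.01 each under the literal wording of the methods, where the median of all genes was -0.12, so that both stayed above the median of all genes. In the class I list, whose products show peptides from inside the cell to killer T cells, 12 of 14 genes were above 0 and 6 lay higher without overlap. The immunoproteasome subunit PSMB9 was at 8.07 and 8.19 at 5 μM, against 7.62 and 7.92 at 1 μM (0.36, SE 0.19), and the light chain B2M at 13.16 and 13.16, against 12.89 and 13.03 (0.20, SE 0.15). Of 32 interferon-stimulated genes 24 were above 0, with 11 higher and 2 lower without overlap. IFIT3, an antiviral RNA-binding protein, measured 8.98 and 9.26 at 5 μM and 8.66 and 8.59 at 1 μM (0.49, SE 0.18), and the transcription factor IRF1 9.63 and 9.62 against 9.19 and 9.21 (0.43, SE 0.12). The list was not uniform, for IFIT5 (-0.35) and GBP2 (-0.31) lay lower without overlap. With 1 compound 1 array left out, the median of the class I list was 0.06 to 0.20 and that of the interferon list 0.07 to 0.17.

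The amino acid response driven by the transcription factor ATF4 had 18 of 27 tested genes above 0 and a median of 0.15, with 11 genes higher and 0 lower without overlap. CTH, which makes cysteine, was at 9.06 and 8.79 at 5 μM and 8.64 and 8.51 at 1 μM (0.35, SE 0.23). The cystine carrier SLC7A11 was at 5.74 and 6.30 at 5 μM, against 5.57 and 5.78 at 1 μM, where 1 of 2 arrays was above background. Its doses overlapped, and its difference of 0.34 (SE 0.21) was 0.62 without 5 μM replicate 1 and 0.06 without 5 μM replicate 2. The glycine carrier SLC6A9 was at 7.17 and 7.27, against 6.81 and 6.96 (0.34, SE 0.15). With 1 compound 1 array left out, the list's median was 0.08 to 0.18. Compared with control, it was -0.22 at 5 μM and -0.26 at 1 μM.

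Cell cycle lists were closer to 0. Of 36 DNA replication genes 25 were above 0 and the median was 0.09. It was -0.03 with the authors' series matrix and -0.04 under the literal wording of the methods, where the median of all genes was also lower. Relative to all genes, the DNA replication median was 0.08 to 0.12 under every alternative. RRM2, a subunit of the reductase that makes deoxynucleotides, had 6.95 and 6.68 at 5 μM and 6.08 and 6.53 at 1 μM (0.51, SE 0.22), and 0.29 without 1 μM replicate 1 but 0.74 without 1 μM replicate 2. The clamp loader subunit RFC2 had 7.56 and 7.02 at 5 μM and 6.75 and 6.86 at 1 μM (0.49, SE 0.22). The RFC2 estimate was 0.22 without 5 μM replicate 1 and 0.76 without 5 μM replicate 2, and a second probe gave 0.12. POLA1, a DNA polymerase, differed in the other direction by -0.32. In the mitosis list 27 of 45 genes were above 0 with a median of 0.02. That median was -0.09 with the series matrix and under the literal wording, -0.04 without 1 μM replicate 2 and 0.12 without 1 μM replicate 1. Relative to all genes, it ranged from -0.02 to 0.13. The spread inside this list was wide on the higher side, where NUF2 of the kinetochore (0.54), CDK1 (0.42) and CDC20 (0.35) lay, against -0.14 for CENPF at the other end. Of the 45 genes, 13 were higher and 0 lower without overlap. A second NUF2 probe gave a difference of 0.04 (SE 0.22).

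Genes for which the study used quantitative PCR, and markers it followed, are given next. The study used that PCR to follow the effect of inhibitor treatment. The values here set 5 μM against 1 μM of compound 1, which is a different comparison. Against control, proliferation genes of the PAM50 breast cancer set had medians of -0.14 at 5 μM and -0.18 at 1 μM. CDC20, an activator of the anaphase-promoting complex, had 11.92 and 12.07 at 5 μM, against 11.53 and 11.76 at 1 μM, without overlap (0.35, SE 0.13, limma adjusted p = 0.664). CENPF, of the kinetochore, differed by -0.14 (SE 0.18). CCNB1 differed by 0.08 (SE 0.16), CCNE1 by 0.16 (SE 0.16), UBE2C by 0.13 (SE 0.11), PTTG1 by 0.02 (SE 0.11) and TGFB2 by -0.06 (SE 0.13). A second, dimmer UBE2C probe gave 0.35 (SE 0.15), and a second PTTG1 probe gave 0.02. CD24 differed by -0.02 (SE 0.17) and CD44 by -0.12 (SE 0.12), the pair of surface proteins used to sort breast cancer stem cells. Among aldehyde dehydrogenases, ALDH1A3 differed by -0.07, while ALDH3A1 had 7.66 and 7.76 at 5 μM against 7.22 and 7.36 at 1 μM, without overlap (0.42, SE 0.14, limma adjusted p = 0.664). The DOT1L probe itself was near the detection limit, at 5.49 and 5.68 at 5 μM and 5.49 and 5.56 at 1 μM. CDH1, ZEB1, SNAI1, MYBL2 and ALDH1A1 were not detected on both arrays of any group and were not tested.

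Each dose was also set against the 2 control arrays. The comparisons share those arrays, so their values are given side by side. In limma, 388 probes (2.17%) were called at 5 μM, 282 higher and 106 lower than control, and 943 (5.26%) at 1 μM, 520 higher and 423 lower. Of the 1048 probes called at either dose, 0 were called between the doses, and the 95% interval of the dose difference lay within a factor of 2 for 97.0%. The counts also rested on the control arrays. Without control replicate 1 there were 881 calls at 5 μM and 1557 at 1 μM, and without control replicate 2 there were 93 and 86.

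Among single genes, MMP1 was above control by 2.52 at 5 μM (limma adjusted p = 0.00131) and by 1.39 at 1 μM (adjusted p = 0.0248). DEFB103A was above control by 2.41 at 5 μM (adjusted p = 0.000794) and by 1.40 at 1 μM (adjusted p = 0.0159), and CD14 by 2.04 (adjusted p = 6.53e-05) and 1.57 (adjusted p = 0.000265). RARRES2 was above control by 1.06 at 5 μM (adjusted p = 0.00107) and by 0.48 at 1 μM (adjusted p = 0.0436). On control arrays DEFB103A and RARRES2 were above background on 1 of 2, so their differences from control are uncertain in size. In these 4 genes the levels of the 2 control, 2 low-dose and 2 high-dose arrays did not overlap and followed the dose. The step between the doses did not pass the threshold in any of them. These genes were named partly for the size or p of their dose difference, so the lack of overlap between the doses follows in part from that choice. The share of all genes with this order was not counted.

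CEMIP and CST1 also stood far from control, with estimated dose differences closer to 0, while ABCA1 and IL11 were lower at 5 μM than at 1 μM without overlap. CEMIP, which breaks down hyaluronan, was not well above background on either control array and had 7.39 and 7.62 at 1 μM and 7.73 and 7.53 at 5 μM. It was at least 3.50-fold higher than control at 1 μM and at least 3.83-fold higher at 5 μM. The cystatin CST1 had 10.35 and 9.05 on the control arrays, 11.93 and 11.94 at 1 μM, and 11.95 and 12.04 at 5 μM. Its close relatives CST2 and CST4 may share its probe's signal. The cholesterol exporter ABCA1 had 8.86 and 7.79 on the control arrays, 10.91 and 10.83 at 1 μM, and 10.46 and 10.55 at 5 μM, and its dose difference was -0.36 (SE 0.31). IL11, a cytokine of the IL-6 family, measured 9.03 and 8.92 on the control arrays, 8.00 and 7.80 at 1 μM, and 7.53 and 7.53 at 5 μM. IL11 fell against control at 5 μM (limma adjusted p = 0.000155) and at 1 μM (adjusted p = 0.00144), and the difference between its doses was -0.37 (SE 0.12, limma adjusted p = 0.664).

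**Figure D5:**
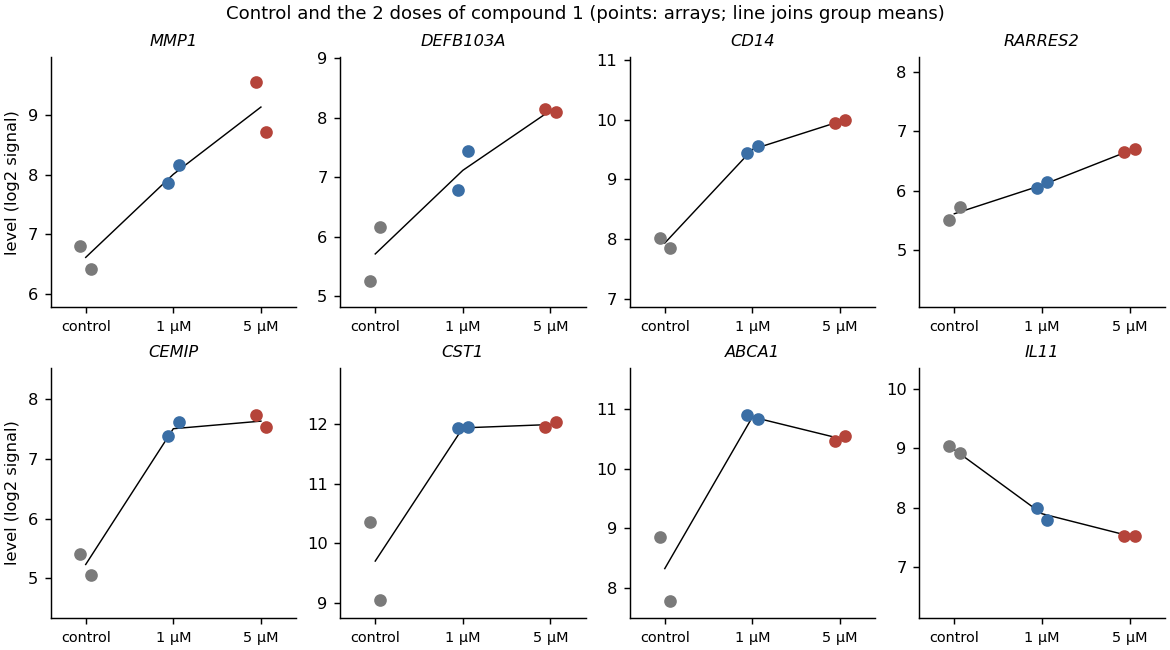
Levels (log2 signal) of 8 genes on the control arrays and at 1 μM and 5 μM compound 1; points are arrays, lines join group means, doses are drawn at equal steps and every panel spans the same height. MMP1, DEFB103A, CD14 and RARRES2 are ordered by dose without overlap, while CEMIP and CST1 are at about the same level at both doses.

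The 2 doses of compound 2, 10 μM and 2 μM, gave a further pair of doses at the same time point, but since they differ from those of compound 1 the values only stand beside each other. There limma called 0 of 17911 probes (0%) and 562 had an unadjusted p below 0.05 (3.14%). The matrix list had a median of -0.01 and the MHC class II list one of -0.04 between the doses of compound 2. MMP1 differed by 0.10 (SE 0.30), DEFB103A by 0.04 (SE 0.26) and CXCL1 by -0.10 (SE 0.18) between 10 μM and 2 μM, whereas CD14 differed by 0.51 (SE 0.13) and CYP1A1 by 0.40 (SE 0.12). Over the 17911 probes the dose differences of the 2 compounds correlated at r = 0.013. Of the 639 probes higher at 5 μM compound 1 at an unadjusted p below 0.05, 55.7% were above 0 in compound 2, against 55.1% of all probes.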

How the data were processed

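RNA of MDA-MB-231 cells had been hybridised to Illumina Human HT-12 v4 arrays, 12 arrays in 6 groups of 2. As deposited by the authors, intensity values are bead signals exported from BeadStudio, background-subtracted and not normalized, and each has a detection p-value, also deposited by the authors. The log2 values deposited by the authors as a series matrix, scaled to a common median, served as an alternative. Of 47324 lines, 2 damaged ones were left out. Detection p-values stood in another line order than the signals and were assigned by rank within each array.

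Signals were corrected with normexp in limma 3.58.1 (R 4.3.3, offset 16), log2-transformed and centred on 11806 probes that all arrays detected (p under 0.01). The test took in probes with detection p under 0.05 on each array of 1 or more groups (17911; 13790 with 1 symbol, giving 10773 genes). The linear model had 1 mean for each group and used the 12 arrays together, so that the spread is shared (6 residual degrees of freedom), with empirical Bayes moderation and Benjamini-Hochberg adjustment. The fit was tested on simulated data. The number of arrays limits the precision, with a median 95% interval of 0.34 log2 to either side.

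Gene lists and members were chosen with earlier results of these data known. Genes were named as follows: the 15 largest called differences in each direction, or, with fewer than 5 calls, the 5 of lowest p; 2 members per list; and a fixed set that includes the genes of the study's quantitative PCR. Further members were named after their values had been seen. Replicate numbers did not pair the arrays: the deviations of replicate 1 from the group means correlated at -0.38 to 0.21 over 15 pairs of groups, and at -0.03 between 5 μM and 1 μM. Promoters came from a RefSeq table (GRCh38.p14). Plots used Python 3.11.15 and matplotlib 3.10.9. Alternatives were signals floored at 1 without normexp, an offset of 50, centring on all probes, quantile normalization, other detection filters, the 4 arrays alone, a replicate block, the series matrix, the literal wording of the methods (floor 1, all probes, no filter), averaged probes, and each array left out in turn.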

Additional observations from a re-analysis of the deposited data

How the results depend on the processing

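Between 5 μM and 1 μM compound 1 the count of called probes stayed at 0 under every alternative run except the literal wording of the methods, where it was 21, and 0 of these 21 probes were detected on both arrays of any group. Between 10 μM and 2 μM compound 2 it was also 0 except under the literal wording, with 38 calls, of which 0 were detected on both arrays of any group. With the replicate block the count between 5 μM and 1 μM was 0, and against control it was 317 at 5 μM and 769 at 1 μM. No listed gene was called under any of the 17 alternatives to which the lists were put, 1 of them added after seeing the data. The counts against control moved more. At 5 μM, against 388, there were 248 calls with signals floored at 1, 626 with centring on all probes, 216 with the authors' series matrix, 112 under the literal wording, 63 with only the arrays compared, and 93 to 881 when an array was left out. At 1 μM, against 943, there were 501 with the floor, 493 with the series matrix, 87 under the literal wording, 273 with only the arrays compared, and 86 to 1557 when an array was left out. Centring on all probes also moved the split of higher and lower calls, to 571 and 55 at 5 μM and to 946 and 133 at 1 μM. The series matrix and the literal wording moved the median of all genes between the doses to -0.14 and -0.12. Relative to the median of all genes, the matrix list ranged from -0.21 to -0.13 and the MHC class II list from 0.12 to 0.27. Of 109 named genes, 13 had the other sign under some alternative, among them DOT1L, CD24, CCNB1, PTTG1, CENPF, TGFB2, CST1 and MUC1. Of the 75 with a difference of 0.3 or more, 3 did (H2AC18, PHLDA1 and EAF1). Probes near background limit what can be said, with a median SE of 0.19 in the dimmest of 4 bins and 0.13 in the brightest.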

Other observations

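Genes of oxidative phosphorylation and of ribosome biogenesis had medians slightly above 0 between the doses. Of 43 tested genes of oxidative phosphorylation 32 were above 0, with a median of 0.06, which was -0.06 under the authors' series matrix, where the median of all genes was -0.14. UQCRH, a subunit of respiratory complex III, had levels of 12.46 and 12.37 at 5 μM, against 12.05 and 12.14 at 1 μM (difference 0.32, SE 0.12). Of 28 genes of ribosome biogenesis 20 were above 0, with a median of 0.05. The 48 cytosolic ribosomal protein genes had a median of 0.03, with 8 higher and 9 lower without overlap. Over all genes these shares were 17.1% and 22%, so the counts are not particular to this list. The contractile cytoskeleton list had 14 of 21 genes below 0 and a median of -0.07, with CALD1, the actin-binding caldesmon, at 9.59 and 9.58 at 5 μM and 9.90 and 9.81 at 1 μM. None of these genes passed the limma threshold.

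HOX genes, which DOT1L is known to support in leukaemia with MLL fusions, gave few measurements. Of 33 HOX and MEIS genes listed 22 had a named probe and 9 were tested, 4 above 0 and 5 below. HOXB5 had 6.13 and 6.13 at 5 μM, against 5.71 and 5.65 at 1 μM (difference 0.45, SE 0.14), and HOXC9 had 5.40 and 5.55 at 5 μM, against 6.04 and 5.80 at 1 μM (difference -0.45, SE 0.17), with 1 of 2 arrays at 5 μM above background. Among 21 tested partners of DOT1L and of H2B ubiquitination, AFF3, a member of the AF4 family, measured 7.09 and 6.83 at 5 μM and 7.51 and 7.48 at 1 μM (difference -0.54, SE 0.17, limma adjusted p = 0.663). Of the aryl hydrocarbon receptor list that holds CYP1A1, 6 of 15 genes were above 0 and 9 below, with a median of -0.02.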
